A study of Mus musculus with 32 samples.

Results

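Of the 4446 ac4C peaks listed for the first control hippocampus of a conditional knockout set, 589 lay where the first conditional knockout list also had a peak. These 589 regions, called kept peaks below, are described here. They were chosen by 1 measured property, an overlap of at least 1 bp between a peak of the first control list (CKO1-C) and a peak of the first knockout list (CKO1-cKO). They make up 13.2% of the first-control peaks and carry the names of 565 genes, 19.4% of the 2916 genes named in that list. Because the overlap itself selected them, that share, their widths and their values in these 2 lists are given as a description with no test. "Kept" states only that a peak was listed in both. A peak that a list lacks may have been present below the threshold of its authors.

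N4-acetylcytidine (ac4C) is a cytidine with an acetyl group on its base. NAT10 is the acetyltransferase known to write it in mammals, where it is well known from transfer and ribosomal RNA. In messenger RNA it has been reported near the start of coding sequences and in 5′ leaders, and has been linked to RNA stability and translation. In acRIP-seq, an ac4C antibody pulls down RNA fragments for sequencing, and stretches with more captured than input reads are listed as peaks. An overlap of peaks places signal within a fragment length, about 200 nt in this protocol, and does not resolve single cytidines.

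All 32 libraries came from hippocampus of C57BL6/J mice, 16 captured with the antibody and 16 inputs, and each captured library gave 1 peak list. The knockout set held 2 control lists (CKO1-C and CKO2-C) and 2 lists of the conditional knockout, written cKO (CKO1-cKO and CKO2-cKO). Peak names inside the files begin with AAV for all 4, so control and cKO samples shared that prefix, while the labels name neither the deleted gene, the Cre driver, the age nor the day. From whole homogenate (HOM) there were 6 lists, all of day 6, with 3 each for the groups written C and L. From the synapse fraction (SYN) there were also 6, with C and L represented once on each of days 1, 6 and 20. The peak names spell C out as Control and L as Learning, and these lists carry no knockout label. In the HOM-L1 list the peak names carry the number 2, as in HOM-L2, and the list is used here under the number of its label. Nothing in the labels says that samples of a group came from separate animals, so each p-value below reflects the variation among these libraries, part of which may be technical.

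The lists differed in form, and these differences touch every result below. CKO1-C held 4446 peaks with a median width of 193 bp, CKO1-cKO 1887 with a median of 150 bp, CKO2-C 5132 with a median of 369 bp, and CKO2-cKO 422, none under 500 bp and with a median of 855 bp. Homogenate lists held 15182 to 16971 peaks covering 6.16 to 12.2 Mb, and synapse lists 5586 to 7293 peaks covering 1.67 to 3.24 Mb. The SYN-L list of day 6 stops on chromosome 7 in file order and could reach 500 of the 589 kept peaks. The lists carry no read counts, so the depth behind a peak is unknown. Of the markers of hippocampal excitatory neurons, 4 of 7 genes had a first-control peak, against 2 of 5 for GABAergic neurons, 6 of 8 for astrocytes, 6 of 9 for oligodendrocytes, 2 of 8 for microglia, 1 of 6 for endothelial and mural cells and 0 of 5 for choroid plexus. In bulk tissue, fewer cells of a type and less RNA per cell cannot be told apart.

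The sequences at which many kept peaks lay are shown first. Each line gives the 100 bases before and the 30 bases from the annotated transcription start onward, 5′ to 3′ on the strand of the gene, from RefSeq on GRCm38.p6, the mm10 assembly. Capitals mark bases inside the first-control peak. The first 6 genes were the kept peaks, also found in both second-pair lists, that recurred in the most homogenate and synapse lists and reached at least 20 bases into the stretch. Agap2 and Tanc1 were not kept and are shown beside them, chosen by the same order among first-control peaks that the first cKO list lacked.
Gnb1: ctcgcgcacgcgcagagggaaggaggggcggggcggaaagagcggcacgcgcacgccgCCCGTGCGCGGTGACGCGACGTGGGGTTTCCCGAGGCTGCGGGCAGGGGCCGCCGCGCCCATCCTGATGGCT
Ptp4a2: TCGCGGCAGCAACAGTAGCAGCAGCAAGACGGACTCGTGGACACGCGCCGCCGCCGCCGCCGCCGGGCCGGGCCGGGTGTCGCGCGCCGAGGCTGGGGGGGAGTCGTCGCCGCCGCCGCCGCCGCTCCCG
Pgrmc2: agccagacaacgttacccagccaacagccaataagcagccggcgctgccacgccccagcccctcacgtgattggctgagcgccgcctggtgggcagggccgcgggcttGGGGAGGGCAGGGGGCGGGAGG
Ube2h: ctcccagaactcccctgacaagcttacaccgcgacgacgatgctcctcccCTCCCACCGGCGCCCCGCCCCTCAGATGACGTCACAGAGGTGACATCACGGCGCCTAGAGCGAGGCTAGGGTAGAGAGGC
Hipk1: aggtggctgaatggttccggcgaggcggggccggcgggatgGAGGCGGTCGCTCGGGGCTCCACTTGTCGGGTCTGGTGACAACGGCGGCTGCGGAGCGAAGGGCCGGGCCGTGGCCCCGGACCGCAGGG
Hnrnpd: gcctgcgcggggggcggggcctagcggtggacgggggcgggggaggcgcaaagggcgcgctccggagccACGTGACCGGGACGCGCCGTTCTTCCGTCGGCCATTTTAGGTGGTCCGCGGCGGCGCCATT
Agap2: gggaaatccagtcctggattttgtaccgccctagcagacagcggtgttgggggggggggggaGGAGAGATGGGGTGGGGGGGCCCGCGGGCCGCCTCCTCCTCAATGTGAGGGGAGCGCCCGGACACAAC
Tanc1: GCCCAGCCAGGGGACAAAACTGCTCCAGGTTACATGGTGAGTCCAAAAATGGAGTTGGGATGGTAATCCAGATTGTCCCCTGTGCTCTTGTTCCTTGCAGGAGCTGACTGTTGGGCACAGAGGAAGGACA
The stretches lie at chr4:155491261-155491390 (Gnb1, plus strand), chr4:129820379-129820508 (Ptp4a2, plus), chr3:41083017-41083146 (Pgrmc2, minus), chr6:30304510-30304639 (Ube2h, minus), chr3:103791246-103791375 (Hipk1, minus), chr5:99978909-99979038 (Hnrnpd, minus), chr10:127078807-127078936 (Agap2, plus) and chr2:59646669-59646798 (Tanc1, plus). In all 6 kept examples the capitals run to the right end of the line, so that the peak goes on into the annotated transcript. In 5 of them it also covers the start base itself, and in Pgrmc2 it begins a few bases downstream. The peaks of Agap2 and Tanc1, which were not kept, also run to the right end and cover the start base. The GC content of these stretches ran from 65.4% in Ube2h to 80.8% in Ptp4a2 among the 6 kept examples, and was 68.5% in Agap2 and 53.1% in Tanc1.

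The kept peaks lay close to gene ends far more often than the rest. The centre of 408 of the 589 kept peaks was within 1000 bp of either end of the span of the named gene, which is 69.3% (95% Wilson interval 65.4 to 72.9). For the other first-control peaks it was 1101 of 3856, or 28.6% (27.1 to 30). The median distance to the nearer end was 388.5 bp for kept peaks, with an interquartile range of 167.5 to 1599 bp, and 3996 bp for the others. Read the other way, 27.0% of the 1509 first-control peaks near a gene end were kept, against 6.16% of the 2936 farther from both ends. A position has no replicate, so the intervals cover counting error only and no test over samples could be made.

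Where the strand was known, the end in question was nearly always the start. RefSeq start windows in the table used here covered the genes of 459 of the 589 kept peaks, 77.9%, which is too few for a check over the whole set, so the stranded values below are void as a statement about all 589 and describe the placed peaks only. Of 319 placed kept peaks within 1000 bp of a gene end, 309 (96.9%) were within 1000 bp of an annotated start, against 718 of 864 (83.1%) of the others. Of 442 placed kept peaks inside the gene, 346 (78.3%) had their centre in the first 10% of the gene and 8 (1.81%) in the last 10%. For the others these were 802 (29.9%) and 253 (9.44%) of 2680. The median placed kept peak was centred 188 bp downstream of the nearest annotated start, and the median of the others 3816 bp downstream.

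**Figure D1:**
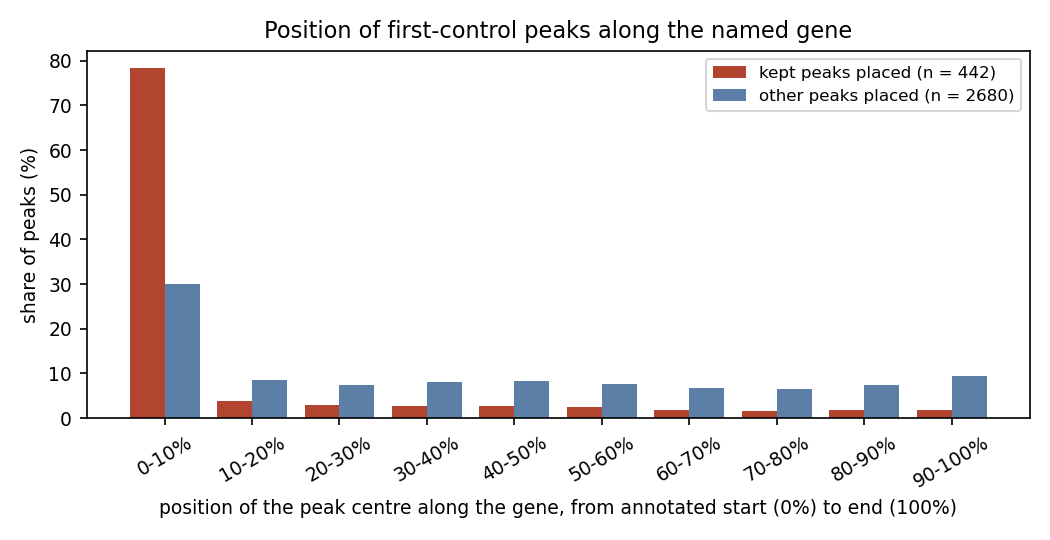
Share of placed peaks (vertical axis, %) by position in the named gene, in 10 equal bins from its annotated start to its end (horizontal axis), for 442 kept peaks (red bars) and 2680 other first-control peaks (blue bars). The first bin holds 78.3% of the kept peaks and 29.9% of the others, and no later bin holds more than 3.85% of the kept peaks.

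The second pair, which the rule did not use, showed the same placement. CKO2-cKO overlapped 277 of the 5132 CKO2-C peaks, and 208 of these 277 (75.1%) were centred within 1000 bp of a gene end, against 1532 of 4855 (31.6%) of the other second-control peaks. Of the 277, 205 (74.0%) overlapped a kept peak of the first pair. The 2 pairs thus largely describe the same regions, and this placement is not an independent repeat. The 2 cKO lists were themselves weighted this way as a whole. Peaks near a gene end made up 58.9% of CKO1-cKO and 72.0% of CKO2-cKO, but 33.9% of each control list, 29.6% to 41.0% of homogenate lists and 29.4% to 33.2% of synapse lists. Both cKO lists thus lay above the other 14, though with 2 lists against 2 within the set an exact permutation test cannot go below 0.333.

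The start windows under kept peaks were rich in G and C. In 300-base RefSeq windows, running from 250 bases before the start to 50 after, the median GC content was 67.8% for the 216 windows under a kept peak. It was 64.7% for 402 windows under another first-control peak only and 56.3% for all 21263 windows of protein-coding genes. The hexamer CCGCCG, searched on both strands (CGGCGG on the other) with overlapping matches counted once per window, was present in 144 of the 216 windows, or 66.7%. On the strand of the gene, 31.5% of these windows held it, and on the opposite strand 51.4%. It was present in 44.5% of the windows under other first-control peaks, in 24.7% of protein-coding windows and in 18.7% of all 32851 windows. On the strand of the gene these shares were 23.4%, 13% and 10.2%. In the stretches printed above, Gnb1, Ptp4a2, Hipk1 and Hnrnpd hold it, and Pgrmc2, Ube2h, Agap2 and Tanc1 do not. Base composition of the windows moved with being kept. In each window 250 of the 300 bases lie before the annotated start. Of the placed peaks, 43.4% of the kept and 12.6% of the others overlapped a window of their gene. The bases of peaks outside the windows were not read, so these values describe start windows and not the peaks. The part of base composition in the peaks was not tested. A match to these letters is a description of the window, not an acetylated site.

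Kept peaks were also wider and carried higher folds in the list that defined them. Their median width was 226 bp, with an interquartile range of 163 to 339 bp, against 189 bp for the others, and their median authors' fold was 7.87 against 5.41. The median of the authors' −log10 q-value was 17.6 against 12.6. The fold here and below is the authors' enrichment of each peak within its own list, which ranks peaks inside that list and is not compared between lists. The overlap with CKO1-cKO had a median of 150 bases, the usual width of a peak in that list, or 66.1% of the control peak. It covered at least 50% of the control peak in 416 cases and the whole of it in 52, and fell under 50 bases in 28. At the limit of the rule, the shortest overlaps were 2 bases in Atp5j, 9 in Oscp1 and 14 in Grik5. The nearest peaks outside it missed by 1 bp in Pak1, 8 bp in Ube2m and 12 bp in Agap1.

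The second control list held 463 of the 589 kept peaks, 78.6% (95% Wilson interval 75.1 to 81.7), where it held 58.4% of all first-control peaks and 55.3% of those not kept. The second cKO list held 226, 38.4% (34.5 to 42.4), where it held 5.40% of all first-control peaks and only 14 of the 3857 not kept, 0.363%. With the others weighted to the widths of the kept peaks these shares were 58.5% and 0.367%. Of the 463 kept peaks that the second control list held, 208 (44.9%) were in the second cKO list as well, against 13 of 2134 (0.609%) of the others. Each of these comparisons rests on 1 list, so the intervals cover counting error only. The 2 cKO lists were close to nested, since 376 of the 422 CKO2-cKO peaks (89.1%) overlapped a CKO1-cKO peak. By the rule, peaks not kept are those without a CKO1-cKO peak. Their near-absence from CKO2-cKO was therefore largely set in advance by this nesting. In the other direction, CKO2-cKO overlapped 399 of the 1887 CKO1-cKO peaks (21.1%). It overlapped 229 of the 591 that lay at a first-control peak (38.7%), against 170 of the 1296 that did not (13.1%).

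Thus 208 kept peaks had a peak in all 4 lists of the knockout set, and 255 were in the second control but not the second cKO list. A further 18 were in the second cKO but not the second control list, and 108 in neither. Among the 108 were peaks of both neighbouring sites in Cspg5, a brain chondroitin sulphate proteoglycan.

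Homogenate lists, which played no part in the choice, held a larger share of kept than of other first-control peaks in 6 of 6 lists. HOM-C1, HOM-C2 and HOM-C3 held 65.0%, 81.5% and 74.4% of the kept peaks, where they held 51.8%, 58.3% and 55.4% of all first-control peaks. HOM-L1, HOM-L2 and HOM-L3 held 68.3%, 77.6% and 75%, where they held 55.1%, 57.1% and 48.5% of all. The difference between kept and other peaks was 22.2 percentage points ± 6.20 (SD, n = 6 lists), with an exact two-sided sign-flip permutation p = 0.0312, the smallest that 6 lists allow. Adjusted by Benjamini-Hochberg over the 5 comparisons tested it was 0.0521 and did not pass 0.05. With C and L lists of 1 number averaged to 1 unit, the 3 differences were positive and the exact permutation p was 0.25, the smallest that 3 units allow. The HOM-C1 and HOM-L1 lists had the smallest differences, 15.2 points each, although they covered the most bases of the 6.

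Synapse lists gave differences of like size. On days 1, 6 and 20, SYN-C lists held 65.4%, 53.3% and 50.8% of the kept peaks, where they held 44.4%, 34.2% and 32.7% of all first-control peaks. SYN-L lists of the same days held 64%, 47.7% and 58.1%, where they held 40.7%, 31.4% and 35.3% of all. The difference between kept and other peaks was 23.2 points ± 3.14 (SD, n = 6 lists) and was positive in 6 of 6 lists, with an exact sign-flip permutation p = 0.0312, or 0.0521 adjusted over the 5 comparisons. With C and L of 1 day as 1 unit the exact permutation p was 0.25. Within the part of the genome that the shortened SYN-L list of day 6 reaches it was 23.9 points.

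**Figure D2:**
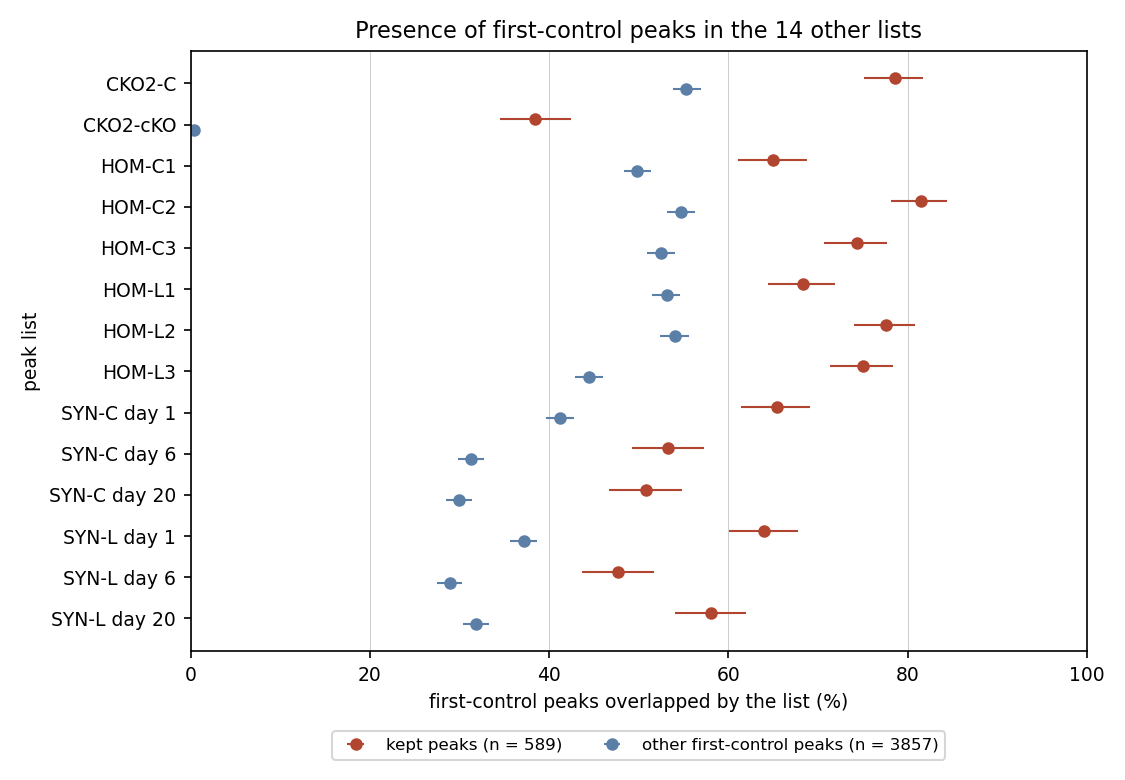
Share of first-control peaks overlapped by each of the 14 lists that the choice did not use (horizontal axis, %), for 589 kept peaks (red) and 3857 other first-control peaks (blue). Points are shares and bars 95% Wilson intervals, which cover counting error only; the kept peaks lie to the right in every list, and the second cKO list holds 38.4% of them against 0.363% of the others.

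Part of this difference went with place in the gene. Among peaks centred within 1000 bp of a gene end, homogenate lists held 76.3% ± 6.23 of the kept and 69.4% ± 4.94 of the other peaks (SD, n = 6 lists), a difference of 6.89 points. Farther from both ends, inside or outside the gene span, they held 67.7% ± 6.58 and 44.2% ± 4.48, a difference of 23.4 points. In synapse lists the difference was 15.5 points near gene ends, from 57.6% ± 7.95 against 42.1% ± 5.73, and 24.3 points farther from both ends, from 54.1% ± 6.94 against 29.9% ± 4.56. In each of these 4 comparisons the kept peaks were higher in 6 of 6 lists, with the exact sign-flip permutation p at its smallest, 0.0312. These 4 splits were chosen after seeing the data, and the sizes near and far from gene ends were not tested against each other. In the second cKO list, 172 of 408 kept peaks near gene ends (42.2%) and 54 of 181 farther from both ends (29.8%) were present, against 8 of 1101 and 6 of 2755 of the others.

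**Figure D3:**
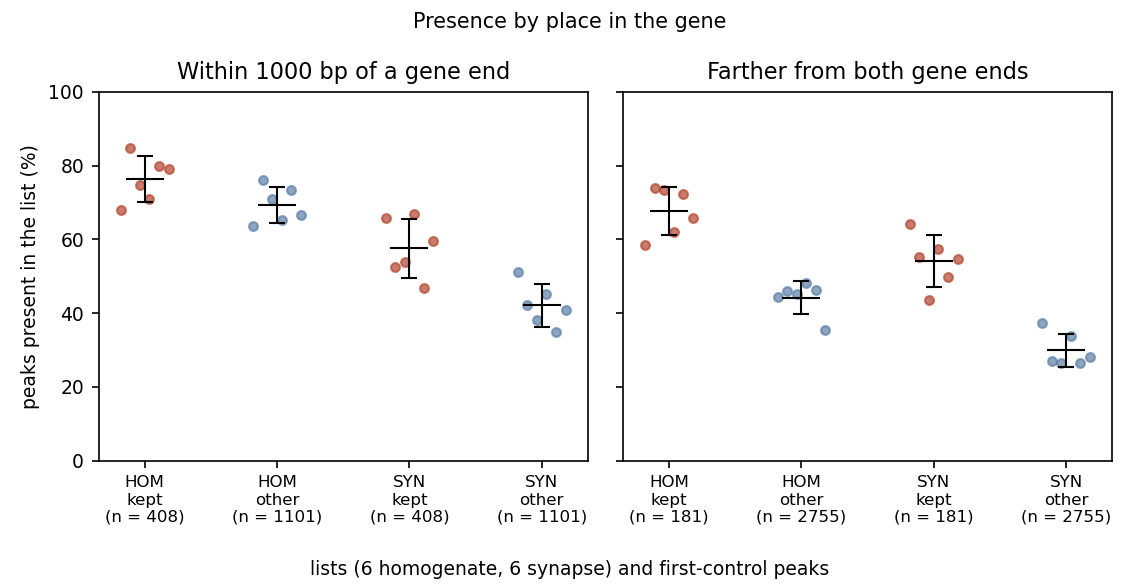
Share of peaks present in a list (vertical axis, %) for kept (red) and other (blue) first-control peaks, in the 6 homogenate (HOM) and 6 synapse (SYN) lists, near gene ends (left) and farther from both ends (right). Each point is 1 list and black bars are mean ± SD; the homogenate means are 76.3% and 69.4% near gene ends and 67.7% and 44.2% farther from both ends.

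The kept peaks were found more often in homogenate than in synapse lists, as were first-control peaks in general. The mean share was 73.6% ± 6.05 in homogenate and 56.5% ± 7.18 in synapse lists (SD, n = 6 lists each), a difference of 17.1 points, with an exact two-sided permutation p = 0.00433 and 0.0216 adjusted over the 5 comparisons. This test takes the 12 lists as separate. With C and L lists of 1 homogenate number or 1 synapse day averaged to 1 unit, the difference was the same but the exact permutation p was 0.1, the smallest that 3 units against 3 allow, and the call did not hold. Homogenate lists are all of day 6, and against the 2 synapse lists of that day the difference was 23.1 points. Its exact permutation p was 0.0357, the smallest that 28 assignments allow, and this too takes the lists as separate. The shortened SYN-L list is among those 2, and where it reaches, the difference was 18.9 points. For peaks that were not kept the shares were 51.4% ± 3.83 and 33.4% ± 4.80, exact permutation p = 0.00216. The advantage of kept over other peaks differed by -0.954 points between homogenate and synapse lists, exact permutation p = 0.745, so the fraction difference was not shown to be particular to kept peaks. Homogenate lists covered more bases, and the part of that in these shares was not tested.

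Groups C and L held nearly equal shares of the kept peaks. In the homogenate the means were 73.6% ± 8.26 for C and 73.6% ± 4.83 for L (SD, n = 3 lists each), with a difference of 0 points and an exact permutation p = 1. With the replicate numbers as pairs the difference was also 0, with L minus C at 3.23, -3.90 and 0.679 points. In the synapse the means were 56.5% ± 7.80 for C and 56.6% ± 8.25 for L, a difference of 0.113 points, exact permutation p = 1. Among the 500 kept peaks that the shortened SYN-L list of day 6 reaches, they were 57% ± 7.75 and 59.1% ± 4.09, a difference of 2.13 points, exact permutation p = 0.6. By day, L minus C was -1.36 points on day 1, -5.60 on day 6, where the L list is incomplete, and 7.30 on day 20. With 3 lists against 3 the smallest exact permutation p is 0.1, so no difference of any size could have passed.

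Few single kept peaks split C from L. No kept peak was in all 3 HOM-L lists and no HOM-C list, a pattern of 0.112% of first-control peaks, and none had the reverse pattern, 0.135% of them. In the synapse, 3 kept peaks were in all 3 SYN-L and no SYN-C list, against 0.450% of first-control peaks, namely those of Akap8l, Dek and Ttc7b. The peak of Ube3c, a ubiquitin ligase, was the 1 with the reverse pattern, against 0.585%. These 4 were named after their values were seen.

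Over the 14 lists that the choice did not use, kept peaks recurred in a median of 10 lists. In 296 cases (50.3%) they were in 10 or more, against 789 (20.5%) of the others. All 6 homogenate lists held 261 kept peaks (44.3%) and all 6 synapse lists held 99 (16.8%), against 24.3% and 5.68% of the others. At the ends of the scale, 31 kept peaks were in all 14 lists and 6 in none, where 0 and 388 of the others were. The count of 0 is largely set by the second cKO list, which held 14 of the others in all.

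**Figure D4:**
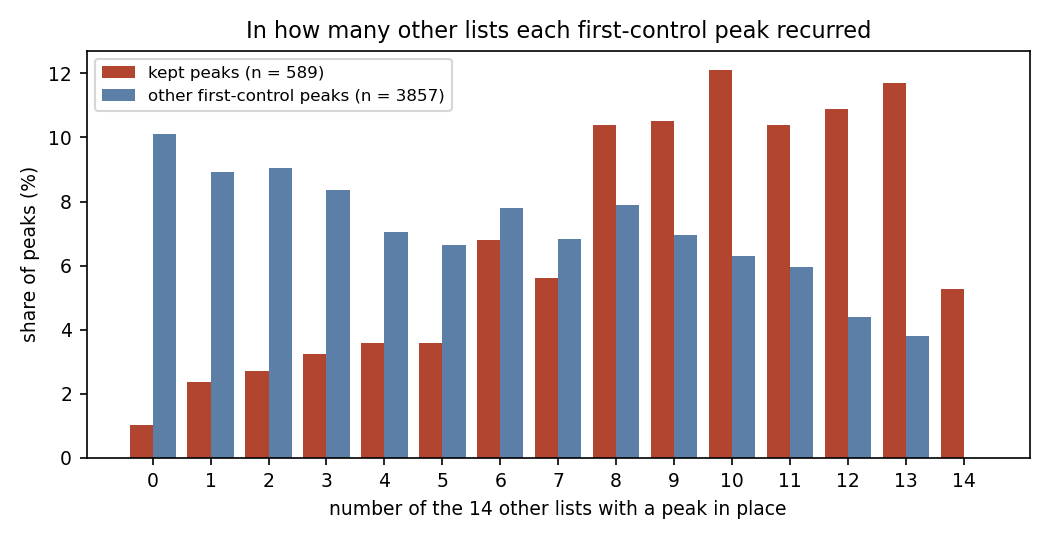
Share of peaks (vertical axis, %) by the number of the 14 other lists that had a peak in place (horizontal axis), for 589 kept (red bars) and 3857 other first-control peaks (blue bars). Kept peaks are most frequent at 10 lists (12.1%), and the others at 0 lists (10.1%).

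The 31 peaks found in every list of the series included several signalling genes. Gnb1 encodes a beta subunit of heterotrimeric G proteins, and its peak at chr4:155491319-155491578 was centred 87 bp past an annotated start and shared 251 of its 260 bp with the cKO peak. Its fold was 57.1 in CKO1-C, 21.2 in CKO1-cKO, 8.13 in CKO2-C and 2.60 in CKO2-cKO. It was 23.2, 71.8 and 111 in the HOM-C lists and 55.7, 69.3 and 216 in the HOM-L lists. In the synapse it was 8.20, 7.75 and 11.8 for C and 23.4, 74.5 and 7.52 for L on days 1, 6 and 20. These values are set side by side only, since each ranks a peak within its own list. Gnaq (chr19:16132881-16133399), the alpha subunit that activates phospholipase C, was centred 456 bp past its start and had folds of 24.4, 9.50, 5.83 and 3.32 in CKO1-C, CKO1-cKO, CKO2-C and CKO2-cKO. Gnas, the stimulatory alpha subunit, had 2 kept peaks. The one at chr2:174328421-174328988 was in all 14 other lists, and the one at chr2:174330075-174330389 was in 11 and missing from CKO2-cKO, HOM-L1 and HOM-L3. Both lay far along the long Gnas span but within 936 and 226 bp of annotated internal starts. Adcy5, an adenylyl cyclase, was centred 1644 bp past a start and was in every list, with folds of 13.7, 14.5, 9.27 and 5.52 in the 4 lists of the set in the same order.

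Other members present in every list covered vesicle release, kinases, and protein turnover. Cadps (chr14:12822306-12822930), which primes dense-core vesicles, was 461 bp past a start with folds of 30.2 in CKO1-C and 28.0 in CKO1-cKO. Gsk3a (chr7:25237185-25237740), a glycogen synthase kinase, had folds of 29.5, 13.2, 22.3 and 8.65 in the 4 lists of the set, and 30.7 to 546 over the homogenate lists. Pink1 (chr4:138325841-138326231), a kinase that marks damaged mitochondria, had folds of 19.8, 13.2, 6.25 and 4.67 in the set, 19.4 to 59.9 in homogenate and 9.39 to 40.1 in synapse lists. The ubiquitin-conjugating enzyme Ube2h had a first-control fold of 23.6 and Trim44, a tripartite-motif protein, of 23.1. Ptp4a2, a tyrosine phosphatase, had a first-control fold of 32.0 and 3.96 in CKO1-cKO, and its peak was centred 7 bp from an annotated internal start, 9321 bp from the nearer end of the gene span. Pgrmc2, a membrane-bound haem-binding protein, and Nckap1, a subunit of the WAVE actin regulator, had first-control folds of 25.6 and 17.6. Of the 589 kept peaks, 27 lay outside the RefSeq span of the gene they were named for, including that of Gabrg1, so those names are uncertain.

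The 8 kept peaks with the highest first-control fold were those of Hnrnpd (73.7), Gnb1, Arf3 (55.4), Tia1 (50.7), Atp1b1 (49.7), Ywhah (46.9), Rab11fip4 (44.3) and Efhd2 (43.1). Hnrnpd, an RNA-binding protein of AU-rich elements, had folds of 16.8 in CKO1-cKO, 50.8 in CKO2-C and 6.14 in CKO2-cKO. Its fold was 152, 592 and 1010 in the HOM-C lists and 173 and 659 in HOM-L1 and HOM-L2, and no peak overlapped in HOM-L3. Tia1, a stress granule protein, was centred 296 bp upstream of its annotated start and was missing only from SYN-C on day 20. Atp1b1, a subunit of the sodium pump, was missing only from CKO2-cKO. Ywhah, a 14-3-3 protein, was missing from HOM-C1, HOM-L1 and the SYN-C lists of days 6 and 20. Arf3, a small GTPase of the Golgi, was missing from HOM-C3 and HOM-L3.

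**Figure D5:**
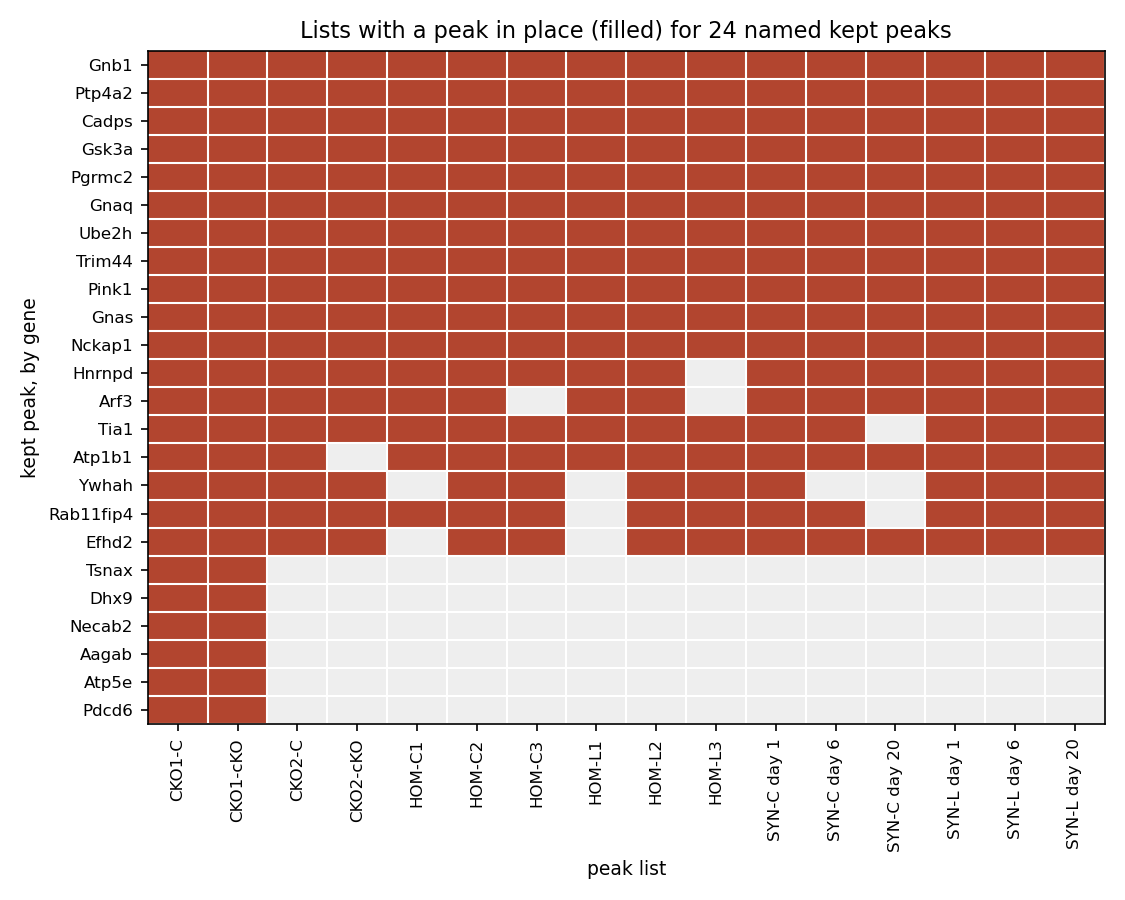
Peak lists (columns) with a peak in place, filled, or without, grey, for 24 kept peaks (rows, by gene). The first 11 rows recurred in the most lists, the next 7 add the highest first-control folds, and the last 6, from Tsnax to Pdcd6, had no overlap in any of the 14 other lists.

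At the other extreme stood peaks that no further list held. The kept peaks of Tsnax, Dhx9, Necab2, Aagab, Atp5e and Pdcd6 overlapped no peak of the other 14 lists. Their first-control folds ran from 2.78 in Pdcd6 to 6.40 in Tsnax, and their widths from 150 to 303 bp. The peaks named for Aagab, Atp5e and Pdcd6 lay outside the span of those genes, by the table used here.

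The widest kept peak covered 3811 bp of Plec (chr15:76178124-76181934), which encodes the cytolinker plectin and lay 9055 bp from the nearer gene end. It was in all 14 other lists, with only 167 of its bases inside a CKO1-cKO peak, and its fold was 14.7 in CKO1-C, 7.45 in CKO1-cKO, 10.8 in CKO2-C and 2.91 in CKO2-cKO. Next came Tnk2, a non-receptor tyrosine kinase (1080 bp), Diras1, a small GTPase (991 bp), Hnrnpa0, an RNA-binding protein (914 bp) and Htatsf1 (905 bp). Diras1 and Hnrnpa0 were in all 14 other lists, and Htatsf1 was missing from CKO2-cKO and from SYN-L on day 6, which ends before chromosome X.

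Most genes had a single kept peak (543 of 565), 20 had 2, and Zc3h13 and Pcsk1n had 3 each. Zc3h13 encodes a subunit of the m6A methyltransferase complex. Its kept peak near the start (chr14:75284516-75284675) was in 8 other lists, all 6 of the homogenate among them. The 2 far downstream, at chr14:75323565-75323838 and chr14:75327460-75328059, were in 5 and 12 other lists, and both were in CKO2-cKO where the first was not. Pcsk1n encodes proSAAS, an inhibitor of a prohormone convertase. Its start peak (chrX:7919873-7920022) was in 11 other lists but not in CKO2-cKO, and the 2 downstream peaks were in 6 each, both with CKO2-cKO. Agap3, a GTPase-activating protein, had a start peak with a fold of 29.8 in 10 other lists and an internal one with 5.93 in 2.

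Genes with a kept peak also had first-control peaks that the cKO list lacked. Of the first-control peaks that were not kept, 409 lay in genes with a kept peak. The highest folds among them were 35.1 in Slc12a2, 32.2 in Chd3, 30.9 in Ssx2ip, 29.9 in Ccdc136, 24.9 in Chd5 and 20.5 in Pea15a, each 1497 bp or more from the nearest CKO1-cKO peak and none in CKO2-cKO. In Chd3, a chromatin remodeller, the kept peak was 139 bp from a gene end, with folds of 11.4 in CKO1-C, 80.5 in CKO1-cKO, 2.77 in CKO2-C and 9.81 in CKO2-cKO. The peak that was not kept lay 5361 bp from the nearer end and recurred in 2 other lists, both of the synapse. A further 470 genes were named in both first-pair lists with no peak in the same place, and 1881 were named in the first control list alone.

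Among signalling genes for calcium, cAMP and MAPK, 17 of the 43 with a first-control peak had a kept one (39.5%), where 19.4% of all genes did. They included Gnb1, Gnaq, Gnas and Adcy5, described above, and the kinases Map2k1 and Camk2b. GABA genes gave 5 of 10, 1 of them Gabrg1, whose peak lay outside its gene span, and among the others Slc6a11, the astrocytic GABA transporter GAT3, whose peak had a fold of 38.9 and was in 13 other lists, and Gabbr1, a GABA-B receptor subunit, in 6. Ubiquitin ligases and related enzymes gave 14 of 45 (31.1%), with Ube2h and Trim44 in every list, Ube2ql1 in 13 others and Trim37 in 12. Since the rule chose these peaks, the counts describe the members and are not tests, and the gene lists were drawn up with earlier results of these data known.

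RNA modification enzymes and readers gave 4 of 8 genes (50%), namely Adarb1, Alkbh5, Nsun2 and Zc3h13, where the share over all genes was 19.4%. The list held 38 genes, of which only these 8 had a first-control peak. Adarb1, an adenosine deaminase that edits RNA, had a peak at chr10:77418103-77418258 that was centred 92 bp past a start and lay wholly inside a CKO1-cKO peak. Its fold was 11.2 in CKO1-C, 8.72 in CKO1-cKO, 13.1 in CKO2-C and 5.74 in CKO2-cKO, and it was missing only from the shortened SYN-L list of day 6, although that list reaches it. Nsun2, an RNA cytosine methyltransferase, and Alkbh5, an m6A demethylase, were each in CKO2-C, all 6 homogenate lists and 1 synapse list, but not in CKO2-cKO.

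Presynaptic genes gave 8 of 32 (25%) and postsynaptic genes 3 of 29 (10.3%), where the share over all genes was 19.4%. Counted by peak, presynaptic genes gave 8 of 70 (11.4%) and postsynaptic genes 3 of 63 (4.76%). Over all first-control peaks that share was 13.2%, so presynaptic genes lay above the share by gene and below it by peak. Slc17a7, the vesicular glutamate transporter of excitatory neurons, had a peak at chr7:45163937-45164133 with a fold of 31.6 that was in both second-pair lists and in 5 of 6 synapse lists but in 1 of 6 homogenate lists, HOM-L1. Syt7, a calcium sensor of vesicle release, was in 6 synapse and 2 homogenate lists, and Syn2, a vesicle-coat phosphoprotein, in 5 and 6. Of postsynaptic genes, Arhgap32, Grik5 and Nlgn1 had kept peaks, in 9, 9 and 7 other lists. Adhesion and axon guidance genes gave 5 of 39 (12.8%), cytoskeletal and transport genes 8 of 40 (20.0%) and ion channels 5 of 28 (17.9%). By peak these shares were 7.46%, 7.21% and 9.43%. Kcnn2, a calcium-activated potassium channel, was kept 125897 bp from the nearer gene end and in 13 other lists.

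Splicing factors and other RNA-binding proteins gave 8 of 41 (19.5%), close to the share over all genes. Besides Hnrnpd they held Hnrnpul2, in all 14 other lists, and Fmr1, the fragile X protein that represses translation, in 12. Translation factors gave 3 of 27 (11.1%), cytosolic ribosomal proteins 2 of 25 (8%), nuclear respiratory chain genes 5 of 36 (13.9%), Zfp zinc-finger genes 4 of 34 (11.8%) and chromatin genes 5 of 32 (15.6%). Chaperones gave 5 of 19 (26.3%), led by Hspa5, the chaperone of the endoplasmic reticulum, in 10 other lists. Immediate early genes gave 1 of 11, Jund, in 12 other lists.

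Cell type markers were few among the kept peaks. Besides Slc17a7 they included Slc1a3, an astrocytic glutamate transporter, with 2 kept peaks, and Cx3cr1 of microglia. Few markers could be counted: 0 of 2 GABAergic and 0 of 1 endothelial or mural genes with a first-control peak had a kept one, where 19.4% of all genes did. Cx3cr1 (chr9:120049076-120049436) had folds of 5.01 in CKO1-C, 140 in CKO1-cKO, 6.46 in CKO2-C and 48.6 in CKO2-cKO, with 140 the highest CKO1-cKO fold at any kept peak. These folds belong to lists with different thresholds and are set side by side without a comparison.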

How the data were processed

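The authors deposited 1 peak list per captured library, 16 in all. The submitters' processing notes name HISAT2 2.0.4, cutadapt 1.9.3, FastQC and mm10, and the peak caller is not given in the sources used here. Columns of each list hold, per the file headers, the fold enrichment (a ratio) and the −log10 of the p-value and of the q-value. The lists hold no read counts, so depth is unknown.

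Positions were read as 1-based. A peak was present in a list when they shared at least 1 bp, regardless of strand. Shares carry 95% Wilson intervals. Lists were compared with exact two-sided permutation or sign-flip tests, adjusted by Benjamini-Hochberg over 5 comparisons. Gene names were matched to RefSeq spans of GRCm38.p6 for all 589 kept peaks. The members, gene lists and rule for named genes were chosen with earlier results of these data known. The rule took the peaks with the most lists, highest folds, greatest widths, most peaks per gene, no other list, shortest overlaps and gaps, and up to 4 genes per gene list. Some genes that the rule takes are left out of the text.

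Homogenate lists of 1 number deviated together, with correlations of 0.417, 0.251 and 0.158 over 4446 peaks. Between C and L lists of different numbers the correlations ran from -0.293 to 0.108. The numbers were therefore taken as pairs or averaged to 1 unit in alternatives, while the main tests took the lists as separate. The pairing comes from the data, not from the labels, and the peak names of the HOM-L1 list carry the number 2. Alternatives changed the overlap, the fold, the width classes, the range and the lists used. Overlaps were tested on 4000 simulated peaks, and all 4000 overlaps were recovered. Python 3.11.15, pandas 2.3.3 and scipy 1.17.1 were used.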

Additional observations from a re-analysis of the deposited data

How the results depend on the processing

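Counts depended on the stricter fold. With a fold of at least 5 in every list, 370 of 2624 first-control peaks were kept and 68 were in all 4 lists of the knockout set. CKO2-C then held 51.6% and CKO2-cKO 25.4% of the kept peaks, with no share of the other peaks at that fold to set beside them. Requiring 50% of the control peak to be covered left 416 kept peaks with a median width of 206 bp. CKO2-C held 82.1% of kept peaks at gene ends and 70.7% of those away from them. Of the other first-control peaks it held 69.6% and 49.7%. CKO2-cKO held 29.8% of the kept peaks away from gene ends, against 0.218% of the others there. Among kept peaks also in CKO2-C, CKO2-cKO held 44.9%, against 0.609% of the others in CKO2-C.

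The difference between kept and other peaks stayed positive under every alternative run. Without 1 list it was 20.5 to 23.6 points in homogenate and 22.4 to 24.0 in synapse lists, where 5 lists cannot reach an exact permutation p under 0.0625. The difference between homogenate and synapse was 15.3 to 18.9 points without 1 list, 23.1 against day 6 synapse lists only and 22.3 with 50% of the peak covered. With each homogenate number or synapse day averaged over C and L to 1 unit, an alternative chosen after seeing the data, the values stayed at 22.2, 23.2 and 17.1 points, but no exact permutation p passed 0.05 (0.25, 0.25 and 0.1), since 3 units allow none lower. L minus C changed sign between alternatives. In the homogenate it was -0.623 points with 50% of the peak or its middle base covered, and -4.30 to 3.93 without 1 list. In the synapse it was -3.90 with 50% covered, -2.89 with the middle base covered and -3.59 to 4.56 without 1 list. The replicate block left the homogenate difference at 0 and changed no call. The cause of these shifts was not tested. Missing depth and list-specific widths limit what absence of a peak can show.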
